A study of Rattus norvegicus with 8 samples.

Results

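Messenger RNA of 5 genes of the endoplasmic reticulum and integrated stress responses was compared between sinoatrial nodes of rats with heart failure with preserved ejection fraction (HFpEF) and of control rats. The genes were taken by a rule that lists identifiers and uses no measured value, though it was written with earlier results of these data known: Hspa5 (ENSRNOG00000018294), Atf4 (ENSRNOG00000017801), Ddit3 (ENSRNOG00000006789), Trib3 (ENSRNOG00000007319) and Asns (ENSRNOG00000007546), 5 of the 32285 Ensembl identifiers in the deposited table. The sinoatrial node is the pacemaker tissue of the right atrium. All rats were of the inbred Dahl salt-sensitive strain SS/JrHsdMcwiCrl, which becomes hypertensive on a salt-rich chow. Control rats (n = 4 libraries) were fed 0.4% NaCl and HFpEF rats (n = 4 libraries) were fed 8% NaCl, in each case for 11 weeks. No group ate the high-salt diet without the disease model, so salt intake, hypertension and heart failure cannot be told apart. The labels used here state neither age nor sex, nor whether libraries were made from separate animals, so p-values reflect only how these libraries vary. Total RNA depleted of ribosomal RNA was sequenced, with total expected counts of 31774820 to 38889395 per library.

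Unfolded proteins in the endoplasmic reticulum activate the unfolded protein response, in which the sensors PERK, IRE1 and ATF6 signal to the nucleus. PERK and the kinases GCN2, PKR and HRI, which sense amino acid shortage, viral RNA and haem or mitochondrial stress, all phosphorylate the initiation factor eIF2. This slows general translation and favours translation of ATF4, and this shared route is called the integrated stress response. Hspa5 encodes BiP, the main chaperone of the endoplasmic reticulum and a standard read-out of the ATF6 and XBP1 arms. Atf4 encodes the transcription factor of the integrated stress response, whose protein level is set largely by translation, so its mRNA need not follow its activity. Ddit3 encodes CHOP, a transcription factor induced downstream of ATF4 and linked to cell death under prolonged stress. Trib3 encodes a pseudokinase induced by ATF4 and CHOP that feeds back on both. Asns encodes asparagine synthetase, an ATF4 target that makes asparagine from aspartate and glutamine. In heart muscle these pathways are known to respond to pressure overload.

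The promoter windows of Hspa5 and Trib3 are shown because they hold letter matches to textbook elements of these responses. Each runs from 250 bases before to 50 bases after the RefSeq gene start, 5′ to 3′ on the gene's strand, and capitals mark the match. The windows come from RefSeq on build GRCr8 (Hspa5 at chr3:38452766-38453065 on the plus strand, Trib3 at chr3:161275484-161275783 on the minus strand). The deposited counts were made on another build, rn6.
Hspa5: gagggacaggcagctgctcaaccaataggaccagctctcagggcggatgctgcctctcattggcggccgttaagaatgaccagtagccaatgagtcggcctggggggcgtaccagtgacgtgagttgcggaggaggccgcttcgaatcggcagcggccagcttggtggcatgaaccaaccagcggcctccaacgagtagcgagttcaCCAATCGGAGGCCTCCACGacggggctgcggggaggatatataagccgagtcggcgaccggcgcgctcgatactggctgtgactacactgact
Trib3: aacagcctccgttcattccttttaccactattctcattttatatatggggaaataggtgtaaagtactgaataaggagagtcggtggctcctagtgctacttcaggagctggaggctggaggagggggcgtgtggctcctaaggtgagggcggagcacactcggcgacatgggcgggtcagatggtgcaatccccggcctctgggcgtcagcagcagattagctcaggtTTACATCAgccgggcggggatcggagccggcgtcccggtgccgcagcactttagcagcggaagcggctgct

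The Hspa5 window held the endoplasmic reticulum stress element, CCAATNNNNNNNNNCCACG, at bases -43 to -25 from the gene start. This element, searched on both strands, was found in 0.0657% of all 33469 RefSeq promoter windows of the same length. The Trib3 window held a match to the C/EBP-ATF response element, searched as TGATGNAA on both strands, at bases -21 to -14. It lay on the opposite strand, where it reads TGATGTAA, and these letters were found in 3.98% of all windows. The unfolded protein response element TGACGTGG was found in 0.595% of all windows and in 0 of the 5 genes. The windows of Atf4, Ddit3 and Asns held no exact match to these 3 letter patterns. The search allowed no mismatched letter, so near matches inside the windows were missed. The Ddit3 window holds such a near match to the endoplasmic reticulum stress element, on the opposite strand. Sites outside the windows were not searched. A match of letters is not a measured binding site.

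None of the 5 stress genes passed the test between HFpEF and Control, and the largest measured difference was a 1.78-fold higher level of Asns in HFpEF. In the quasi-likelihood test of edgeR, with p-values adjusted over all 16313 tested genes by the Benjamini-Hochberg method and a threshold of 0.05, 0 of 5 passed, and 1.94% of all tested genes did (1.54% higher and 0.398% lower in HFpEF). DESeq2 called 0 of 5, against 7.09% of all genes it tested, and limma-voom 0 of 5, against 1.37%. At an unadjusted p under 0.05 there was 1, Asns, where 19.6% of all tested genes had such a p, and Asns lost it in 5 of 17 alternatives. The 17 include a threshold of 0.1, which left the p-values of the main fit as they were. In each of the 5 genes the libraries of both groups overlapped, as they did in most tested genes, of which 12.5% had no overlap. All 5 genes passed the filter on low counts, and all 40 of their counts were whole within 0.005. The median log2 fold change of the 5 was 0.08, against -0.004 over all tested genes, and the median absolute log2 fold change was 0.11, against 0.13. Levels are given in TMM-normalised CPM, counts scaled to the size of the library, which are not scaled to transcript length, so they are compared between libraries and not between genes. In whole tissue, fewer cells of a type and less RNA per cell cannot be told apart.

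**Figure D1:**
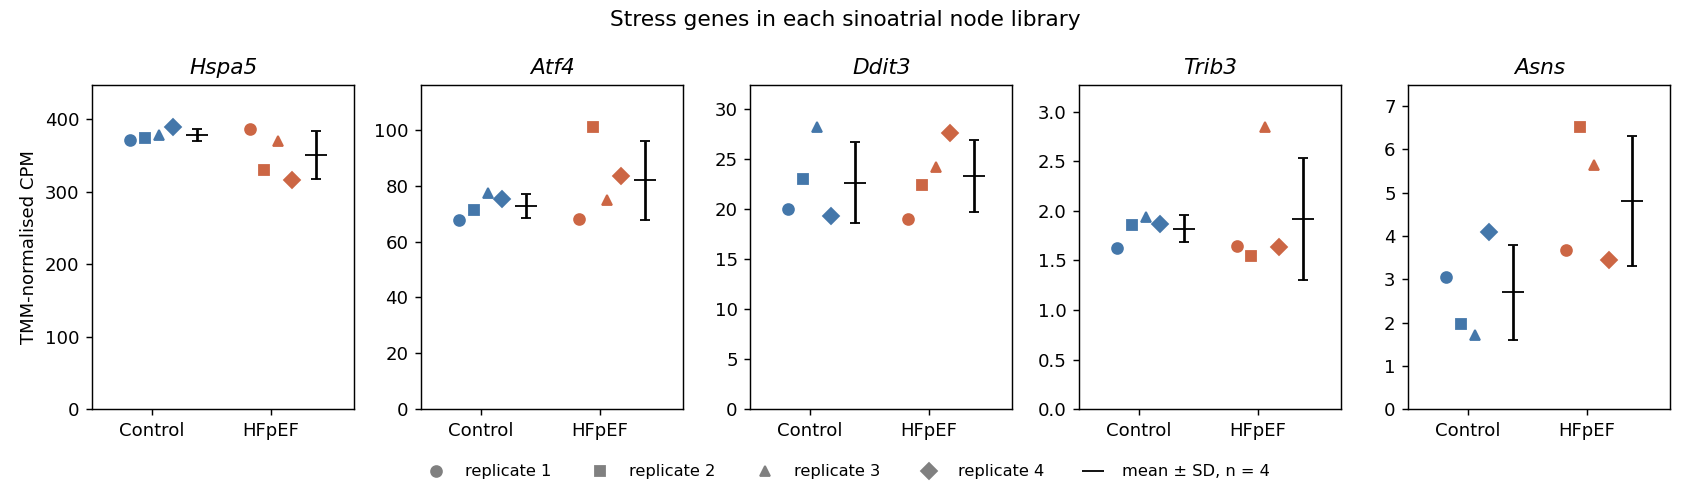
TMM-normalised CPM (y axis, a separate linear scale from 0 for each gene) of the 5 stress genes in the 4 Control and 4 HFpEF libraries. Points are single libraries with the marker giving the replicate number, and bars are mean ± SD; the groups overlap in every panel, and Asns has the largest relative difference between means.

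The chaperone gene Hspa5 was at 371, 374, 378 and 389 CPM in Control replicates 1 to 4. In HFpEF it was at 387, 330, 371 and 316 CPM in replicates 1 to 4. HFpEF replicates 2 and 4 lay well below all Control libraries and HFpEF replicate 3 only just below them, while HFpEF replicate 1 lay within the Control range, so the groups overlapped. The means were 378 ± 7.88 CPM in Control and 351 ± 33.2 CPM in HFpEF (SD, n = 4 each), and the fitted log2 difference was -0.11 (standard error 0.07, edgeR adjusted p = 0.449). The 95% interval of the fold, not adjusted for several genes, ran from 0.828 to 1.04. A rise of Hspa5 mRNA beyond 1.04-fold therefore lay outside this interval, while a fall to 0.828-fold did not.

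Control libraries were close together in this gene, with a coefficient of variation of 2.08% where counting alone would give about 0.875%. In HFpEF the coefficient was 9.46%. On the log2 scale the SD was 4.58 times as large in HFpEF as in Control, a ratio above that of 94.9% of tested genes. The median of this ratio over all tested genes was 1.34, and 67.0% of genes spread more in HFpEF. The ratio was 3.72 for Trib3, 2.82 for Atf4, 0.904 for Ddit3 and 0.786 for Asns, so 3 of the 5 genes spread more in HFpEF. For Trib3 the coefficient of variation in Control, 7.48%, was below the 12.3% that counting alone would give. Its spread in HFpEF came largely from HFpEF replicate 3, at 2.85 CPM. The difference in spread was not tested for the member genes.

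Atf4, the transcription factor of the integrated stress response, was at 67.6, 71.3, 77.5 and 75.1 CPM in Control replicates 1 to 4. In HFpEF replicates 1 to 4 it was at 68.0, 101, 75.0 and 83.6 CPM. HFpEF replicates 2 and 4 lay above every Control library, and HFpEF replicates 1 and 3 lay within the Control range. The means were 72.9 ± 4.35 CPM in Control and 81.9 ± 14.2 CPM in HFpEF (SD, n = 4 each). The fitted log2 difference was 0.17 (standard error 0.11, edgeR adjusted p = 0.459), with a 95% interval of -0.09 to 0.43. Much of this difference came from HFpEF replicate 2, without which the log2 fold change was 0.06 (edgeR adjusted p = 0.798). That library had the lowest total count, 31774820, but the highest Atf4 count before scaling of all libraries, 3195. The part of depth in its value was not tested. Without HFpEF replicate 1 the log2 fold change was 0.25 (edgeR unadjusted p = 0.0447, adjusted p = 0.224).

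Ddit3, which encodes CHOP, was at 20.0, 23.0, 28.2 and 19.3 CPM in Control replicates 1 to 4 and at 19.0, 22.4, 24.2 and 27.6 CPM in HFpEF replicates 1 to 4. Both groups covered nearly the same range, from 19.3 to 28.2 CPM and from 19.0 to 27.6 CPM. The means were 22.6 ± 4.05 and 23.3 ± 3.58 CPM (SD, n = 4 each), and the fitted log2 difference was 0.04 (standard error 0.14, edgeR adjusted p = 0.901). The 95% interval of the fold ran from 0.822 to 1.29. The sign of its estimate depended on the libraries included. Leaving out Control replicate 1 gave -0.01 on the log2 scale and leaving out Control replicate 4 gave -0.03. Leaving out HFpEF replicate 4 gave -0.05, and leaving out Control replicate 3 gave 0.17.

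Libraries of both groups varied in Ddit3 well beyond counting noise. The coefficient of variation was 17.9% in Control and 15.4% in HFpEF, where counting alone would give 3.49%. The biological coefficient of variation that edgeR estimated for it, 15.2%, exceeded that of 90.5% of the 200 tested genes nearest to it in level, whose median was 9.18%.

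Trib3, the pseudokinase gene, was at 1.62, 1.85, 1.94 and 1.87 CPM in Control replicates 1 to 4 and at 1.65, 1.55, 2.85 and 1.64 CPM in HFpEF replicates 1 to 4. HFpEF replicate 3 lay above every other library, and the other 3 HFpEF libraries lay between 1.55 and 1.65 CPM. The counts behind these values were few, 94 in HFpEF replicate 3 (exact 95% Poisson interval 76.0 to 115.0, for counting error only) and 49 to 74 in the other 7 libraries. The coefficient of variation was 7.48% in Control and 32.2% in HFpEF, where counting alone would give 12.3%. The means were 1.82 ± 0.136 and 1.92 ± 0.619 CPM (SD, n = 4 each), and the fitted log2 difference was 0.08 (standard error 0.22, edgeR adjusted p = 0.884). Without HFpEF replicate 3 the log2 fold change was -0.18 (edgeR adjusted p = 0.596). The 95% interval of the fold ran from 0.748 to 1.48, and so included changes of either sign.

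Asns, the asparagine synthetase gene, had the largest difference of the 5. It was at 3.06, 1.96, 1.70 and 4.09 CPM in Control replicates 1 to 4 and at 3.67, 6.51, 5.63 and 3.44 CPM in HFpEF replicates 1 to 4. All 4 HFpEF libraries lay above the Control mean, and HFpEF replicates 2 and 3 lay above every Control library. Control replicate 4 lay above HFpEF replicates 1 and 4, so the groups overlapped. The counts behind these values were 65 to 147 in Control and 126 to 206 in HFpEF.

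The means of Asns were 2.70 ± 1.10 CPM in Control and 4.81 ± 1.50 CPM in HFpEF (SD, n = 4 each), a fitted 1.78-fold difference. On the log2 scale this was 0.83 (standard error 0.32), and its size exceeded that of 94.5% of tested genes. That rank was not matched for level or spread, and only 27.6% of tested genes had a lower mean CPM than Asns. The difference did not pass the test after adjustment (edgeR unadjusted p = 0.0272, adjusted p = 0.197), and 13.8% of tested genes had a smaller p. The 95% interval of the fold, not adjusted for several genes, ran from 1.08 to 2.92. DESeq2 gave an adjusted p of 0.0963, and over all alternatives the adjusted p ran from 0.0963 to 0.375. With 1 library left out the log2 fold change lay between 0.66, without HFpEF replicate 2, and 1.10, without Control replicate 4. Leaving out Control replicate 2 raised the unadjusted edgeR p to 0.0721, and leaving out Control replicate 3 raised it to 0.0683. It was 0.0766 when HFpEF replicate 2 was left out and 0.0649 when HFpEF replicate 3 was. With replicate number as a block it was 0.0703.

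The spread of Asns was large in both groups. The coefficient of variation was 40.6% in Control and 31.1% in HFpEF, where counting alone would give 8.73%. Its biological coefficient of variation in the fit, 31.6%, exceeded that of 94.0% of the 200 tested genes nearest in level, whose median was 16.8%.

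**Figure D2:**
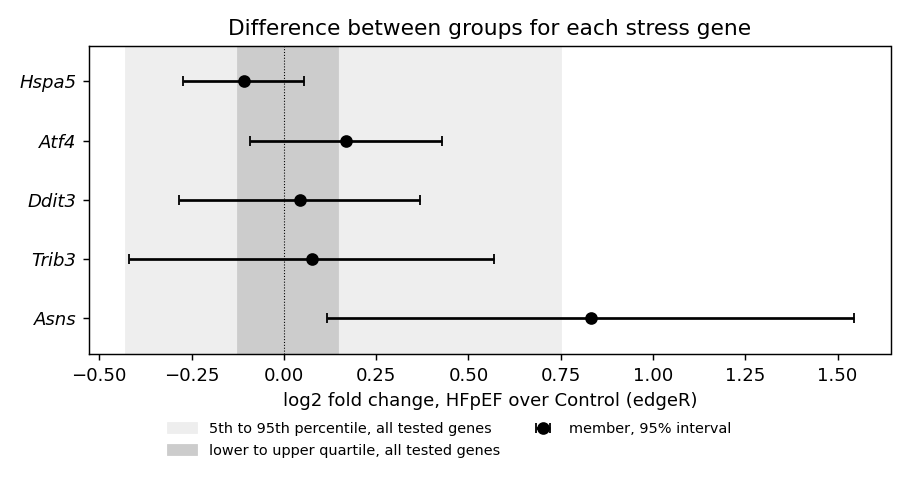
Log2 fold change of HFpEF over Control (x axis) for each of the 5 stress genes, with points the edgeR estimates from 4 libraries per group and bars their 95% intervals, not adjusted for several genes. Shaded bands span the 25th to 75th and 5th to 95th percentiles of all 16313 tested genes; the interval of Asns, from 0.12 to 1.54, lies above 0, and the other 4 intervals include it.

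The plot of fold changes with their intervals shows that precision differed between the genes. The standard error was 0.07 for Hspa5, 0.11 for Atf4, 0.14 for Ddit3, 0.22 for Trib3 and 0.32 for Asns on the log2 scale. For Hspa5, Atf4 and Ddit3 the intervals excluded a rise beyond 1.35-fold, the upper bound of Atf4. For Trib3 and Asns the upper bounds were 1.48-fold and 2.92-fold.

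**Figure D3:**
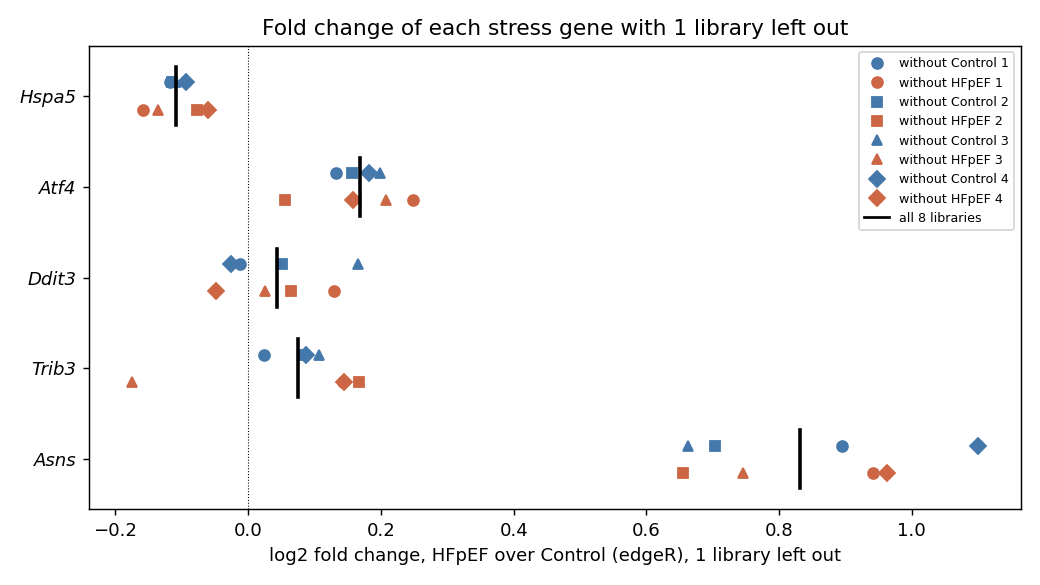
Log2 fold change of HFpEF over Control from edgeR (x axis) for each of the 5 stress genes with 1 library left out in turn; the marker shape gives the replicate and the colour the group of the library left out, and black bars give the value with all 8 libraries. Asns stays between 0.66 and 1.10 and Hspa5 between -0.16 and -0.06, while Ddit3 and Trib3 take both signs.

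Whether the 5 genes differed in how far they moved was examined with ratios of 2 genes within a library, which do not depend on how libraries were scaled. All 10 possible ratios were taken, and they were chosen after the values were seen. None passed an exact two-sided permutation test over the libraries, either before or after adjustment over the 10 ratios. The smallest p was that of Asns over Hspa5. Its log2 ratio was higher by 0.98 in HFpEF than in Control (exact permutation p = 0.0571, adjusted p = 0.429), and by 0.79 to 1.2 with 1 library left out. The log2 ratio of Asns to Atf4 was higher by 0.71 (exact permutation p = 0.143, adjusted p = 0.429), that of Asns to Trib3 by 0.84 (exact permutation p = 0.0857, adjusted p = 0.429) and that of Asns to Ddit3 by 0.82 (exact permutation p = 0.171, adjusted p = 0.429). The log2 ratio of Ddit3 to Atf4 differed by -0.11 (exact permutation p = 0.486, adjusted p = 0.735). The smallest p that 4 against 4 libraries allow is 0.0286, and 6 of the 10 ratios would have to reach it to pass after adjustment. The 4 ratios with Asns could therefore not have passed alone, and the adjusted values do not show that the genes moved alike.

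Across the 8 libraries no pair of the 5 genes passed a test of moving together. Of the 10 correlations between pairs of genes in log2 CPM, 5 were positive and 5 negative, from -0.75 to 0.48, and none passed an exact permutation test after adjustment over the 10 pairs. The extreme pair was Hspa5 with Atf4 (Pearson r = -0.746, exact permutation p = 0.0380, adjusted p = 0.380; Spearman rho = -0.429, exact permutation p = 0.299, adjusted p = 0.660). Without the 2 libraries farthest from the median of Hspa5, HFpEF replicates 2 and 4, r was 0.0690. The value of r therefore depended on those libraries, though leaving out extremes also narrows the range of Hspa5. Atf4 and its target Ddit3 had r = 0.388 (exact permutation p = 0.357, adjusted p = 0.635; Spearman rho = 0.50, exact permutation p = 0.216, adjusted p = 0.660), and 0.690 without the 2 libraries farthest from the median of Atf4. Atf4 and Asns had r = 0.476 (exact permutation p = 0.233, adjusted p = 0.635; Spearman rho = 0.310, exact permutation p = 0.462, adjusted p = 0.660), and -0.0924 without those 2 libraries. Both groups were pooled, so any difference between group means is part of each r. Groups of 4 libraries are too few for a correlation within each group.

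Profiles like those of the member genes were counted among tested genes with a mean of at least 8 CPM, over the same 8 libraries. A Pearson correlation above 0.9 was found for 65 of 9712 genes with Hspa5, 28 with Atf4 and 1 with Ddit3, and for 19 of 9713 with Trib3 and 37 with Asns. A correlation below -0.9 was found for 19 genes with Hspa5, 35 with Atf4, 4 with Ddit3, 21 with Trib3 and 36 with Asns. None of the genes with a correlation above 0.9 was called between the groups by edgeR, where 1.94% of all tested genes were. The member genes were themselves not called, so a gene tracking any of them closely could hardly be, and this count decides nothing. The genes with such correlations are not named, since the table gives no gene symbols. With 8 libraries such correlations are a description of these libraries.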

How the data were processed

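RNA was measured by total RNA sequencing of 4 Control and 4 HFpEF libraries. The authors deposited expected counts per Ensembl gene in 1 table, with no normalization. The submitters' processing notes name Bowtie2 2.1.0, RSEM 1.2.15 and rn6. Annotation, filters and strandedness are not given here, so reads of overlapping or antisense genes may be mixed.

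The table holds no gene symbols, and 0 of its 32285 identifiers matched the RefSeq gene table. The 5 symbols come with the rule that chose the genes. The 9 pathway lists and 11 marker lists were therefore not run, and the labelled tissue was not checked against its markers. The members and lists were chosen with earlier results of these data known.

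Expected counts were rounded. edgeR's filterByExpr kept 16313 genes with 99.95% of the counts, scaled by TMM (factors 0.949 to 1.05). Groups were compared by edgeR 4.0.16 (R 4.3.3) with the quasi-likelihood test, two-sided, and standard errors came from its F statistic. The code was run on counts simulated from the model that edgeR fitted to these data, which checks the code and not the model. Log2 CPM used a prior count of 2. The alternatives tried were limma-voom (limma 3.58.1), DESeq2 1.42.0, RLE and upper quartile scaling, no filter, at least 50 counts in 4 libraries, robust = TRUE, a threshold of 0.1, the replicate number as a block, and each library left out. The rule for named genes gave all 5 members in full. A count of 0 would allow 3 counts, or 0.0771 to 0.0944 CPM, for counting error only.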

Additional observations from a re-analysis of the deposited data

Results flagged for a closer look

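Trib3 in HFpEF was the value of 1 library standing apart: HFpEF replicate 3 was at 2.85 CPM and the other 3 HFpEF libraries at 1.55 to 1.65 CPM, so that 0.926 of the group's range was a single gap, past Dixon's critical value for 4 samples. It was 1 of 10 sets of 4 libraries examined, and chance gives about 1 in 20.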

How the results depend on the processing

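Over all 17 alternatives none of the 5 stress genes passed the test. The threshold of 0.1 was applied only to the main edgeR fit, so it could not change a direction. In DESeq2, read at 0.05, Asns had an adjusted p of 0.0963, which lies below 0.1. Asns, Atf4 and Hspa5 kept their direction in all 17. Ddit3 changed sign without Control replicate 1 (log2 fold change -0.01), without Control replicate 4 (-0.03) and without HFpEF replicate 4 (-0.049), within a range of -0.049 to 0.17 over libraries left out, and Trib3 changed sign without HFpEF replicate 3 (-0.18, range -0.18 to 0.17). With all 8 libraries both estimates were near 0 against their standard errors, 0.04 (standard error 0.14) for Ddit3 and 0.08 (standard error 0.22) for Trib3. Against TMM, the change in log2 fold change per gene had a median of 0.0032 under RLE and -0.00208 under upper quartile scaling.

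Over all tested genes, 251 were higher and 65 lower in HFpEF. DESeq2 called 861 higher and 386 lower, and limma-voom 186 higher and 37 lower. The cause of these differences between tools was not tested. The same edgeR fit read at a threshold of 0.1 gave 668 and 275. Fits on 7 libraries, each with 1 left out, gave 21 to 234 higher genes and 0 to 98 lower genes. Under the replicate block, edgeR called 6 higher and 0 lower genes (2568 had an unadjusted p under 0.05), and Asns was at 0.86 on the log2 scale (edgeR adjusted p = 0.354). Same-numbered libraries correlated at -0.0221, -0.0564, 0.0683 and -0.162 in their deviations from the group means, and only 2 of 8 were closest to their own number. Nothing in the labels pairs them, so the block was not preferred. Leaving out Control replicate 3 gave the 0 lower genes, while 2522 genes had an unadjusted p under 0.05 in that edgeR fit. Counting error, 12.3% for Trib3 and 8.73% for Asns, was smaller than the biological coefficient of variation that edgeR fitted, 21.9% and 31.6%.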
